A study of Mus musculus with 111 samples.

Results

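The caput is the first region of the epididymis, the duct in which sperm leaving the testis mature. Small RNA of caput tissue was compared between mice on 2 diets that serve as controls for different test diets: a high-fat control diet, in which 7.2% of the calories came from fat, and the control diet for low protein, BioServ AIN-93g, with 18% protein. The comparison rests on 10 of the 111 libraries of the series, 5 per diet, chosen by the tissue and diet in their library names. Both groups were group-housed mice with free access to food and had been on their diet for 6 months. Strain, sex and age are not given in the labels used here, and the diets are separate products of one maker, so they may differ in more than the contents named. The series also holds a low-protein and a high-fat diet, and 5 further sample types: cauda epididymis, sperm, testis, heart and liver. The libraries were made by OTTR-seq, a method that joins adapters to RNA by template jumping of the copying enzyme and not by ligation. Whether each library of a diet is a different mouse is not stated, and the p-values therefore cover only the spread from library to library, which may be partly technical.

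Transfer RNAs carry amino acids to the ribosome. Cytosolic tRNAs are transcribed in the nucleus by RNA polymerase III and serve the ribosomes of the cytoplasm. Mitochondrial tRNAs are a separate set, encoded on both strands of the mitochondrial genome, cut out of long transcripts together with the mitochondrial mRNAs and rRNAs, and used only inside mitochondria. In mice, the epididymal epithelium is known to contain abundant tRNA fragments, of which those of tRNA-Gly-GCC and tRNA-Glu-CTC are also found in sperm. The entries counted here do not separate a fragment from a whole tRNA. The third class the results turn on are C/D box snoRNAs, which guide the methylation of riboses in other RNAs, mostly rRNA, and which are released from introns of host genes.

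The 6 mitochondrial tRNAs below are the 4 most abundant and the 2 that passed the test. Each is given 5′ to 3′ with its anticodon in capitals, from GENCODE transcripts on GRCm38. All are annotated on the plus strand except mt-tRNA-Ser-TGA-1, which is on the minus strand. Their positions are chrM:1025-1093 for Val, chrM:9391-9458 for Gly, chrM:9808-9875 for Arg, chrM:3845-3913 for Met, chrM:6870-6938 for Ser and chrM:1-68 for Phe.
mt-tRNA-Val-TAC-1: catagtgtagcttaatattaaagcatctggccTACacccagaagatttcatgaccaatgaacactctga
mt-tRNA-Gly-TCC-1: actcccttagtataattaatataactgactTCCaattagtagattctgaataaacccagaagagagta
mt-tRNA-Arg-TCG-1: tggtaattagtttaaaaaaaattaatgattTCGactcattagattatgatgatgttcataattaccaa
mt-tRNA-Met-CAT-1: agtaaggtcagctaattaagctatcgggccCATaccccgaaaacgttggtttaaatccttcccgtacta
mt-tRNA-Ser-TGA-1: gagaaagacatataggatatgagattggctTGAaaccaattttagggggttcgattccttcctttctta
mt-tRNA-Phe-GAA-1: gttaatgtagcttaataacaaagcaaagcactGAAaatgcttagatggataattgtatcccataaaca

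The 6 snoRNAs below are among the 7 that passed the test, and capitals mark the letters TGATGA of box C where they begin within the first 20 bases and the letters CTGA of box D where they begin within the last 20 bases. Both were found in 44 of the 63 tested snoRNAs with a single annotated transcript, or 69.8%. Their positions on GRCm38 are chr19:8725341-8725409 (plus strand) for Gm22680, chr19:8723993-8724064 (plus) for Gm25855, chr8:110838528-110838616 (minus) for Snord111, chr8:110842383-110842458 (minus) for Gm22193, chr11:116674148-116674222 (plus) for Snord1b and chr15:80078498-80078591 (minus) for Snord83b.
Gm22680: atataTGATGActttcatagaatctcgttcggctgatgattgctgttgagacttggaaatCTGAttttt
Gm25855: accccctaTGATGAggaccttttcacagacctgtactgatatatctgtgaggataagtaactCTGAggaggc
Snord111: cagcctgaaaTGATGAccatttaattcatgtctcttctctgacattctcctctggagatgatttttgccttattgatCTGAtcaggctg
Gm22193: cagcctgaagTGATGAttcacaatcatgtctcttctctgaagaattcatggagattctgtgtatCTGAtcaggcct
Snord1b: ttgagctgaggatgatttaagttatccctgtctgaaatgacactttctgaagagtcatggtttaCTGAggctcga
Snord83b: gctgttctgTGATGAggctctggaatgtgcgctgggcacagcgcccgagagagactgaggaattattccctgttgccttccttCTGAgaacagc

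After removal of duplicate names, the 5 high-fat control libraries held 21420 to 92662 reads (median 45430) and the 5 control libraries 13724 to 85837 (median 65550). The tissue label could not be checked against epididymal marker genes, since the table counts small RNAs only. Levels are given as RPM, which sets a feature's reads against its library's total. piRNA precursors, which mark male germ cells, summed to 90.8 to 319 RPM in the high-fat control libraries and 0 to 338 RPM in the control libraries, with reads on 50 of the 248 listed, against 4120 to 152587 RPM in testis. The 3 sperm hairpins Gm24187, Gm23935 and Gm24270 summed to 370 to 1181 RPM on the high-fat control diet and 478 to 947 RPM on the control diet, against 60595 to 303668 RPM in sperm. Gm26461, abundant in the cauda, had 335 to 5340 RPM on the high-fat control diet, the highest in replicate 4, and 458 to 1473 RPM on the control diet, against 64972 to 222561 RPM in cauda. Gm24245, listed for the cauda too, had at most 46.7 RPM on the high-fat control diet and 30.5 RPM on the control diet. The part of such RNAs in the results was not tested. Control replicate 4 stood apart from the other control libraries, nearer to the high-fat control libraries, and the main counts are given with and without it. The high-fat control libraries were not alike either. In replicates 2 and 4 snoRNAs made up 9.44% and 9.12% of the reads, against 5.11%, 4.82% and 5.79% in replicates 1, 3 and 5. In control replicates 1 to 5 the snoRNA shares were 7.07%, 11.4%, 10.1%, 6.39% and 10.2%. In the column names, the numbers after the letter S ran from 16 to 20 for the high-fat control diet and from 11 to 15 for the control diet. No label says what these numbers stand for. A difference between such blocks of numbers and a difference between diets cannot be told apart.

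On average, mitochondrial tRNAs made up a smaller share of the reads on the high-fat control diet than on the control diet, and cytosolic tRNAs a larger one. The mitochondrial share was 23.3%, 30.2%, 20.7%, 29.7% and 26.6% in high-fat control replicates 1 to 5, against 46.9%, 44.6%, 52.4%, 35.2% and 51.8% in control replicates 1 to 5. The groups did not overlap, and control replicate 4 was the control library nearest to the other diet. The means were 26.1% ± 4.08 on the high-fat control diet and 46.2% ± 6.96 on the control diet (SD, n = 5 each), with an exact two-sided permutation p of 0.00794, the smallest that 5 against 5 allows. Adjusted over the 13 classes of small RNA it was 0.103, so the share did not pass the correction, and with 13 classes a single class at the smallest p cannot pass it. In bulk tissue, fewer cells of a type and less RNA per cell cannot be told apart.

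The share of cytosolic tRNAs was 68.1%, 54.8%, 69.3%, 56.1% and 64.4% in the high-fat control libraries, against 42.6%, 38.2%, 33.5%, 55.6% and 32.7% in the control libraries. The groups overlapped through control replicate 4 alone, which lay above high-fat control replicate 2. The means were 62.5% ± 6.73 on the high-fat control diet and 40.5% ± 9.33 on the control diet (SD, n = 5 each, exact two-sided permutation p = 0.0159, adjusted 0.103). Shares of one library sum to a fixed total, so the 2 shares are not independent. Over reads outside mitochondrial tRNAs, cytosolic tRNAs made up 84.5% ± 4.90 on the high-fat control diet and 74.6% ± 7.96 on the control diet (SD, n = 5 each), a difference of 9.81 percentage points, against 22.01 over all reads (exact two-sided permutation p = 0.0556, adjusted 0.133). A ratio of reads avoids the choice of total: the log2 ratio of cytosolic to mitochondrial tRNA reads, a measure chosen after the shares had been seen, was 1.55, 0.86, 1.74, 0.92 and 1.27 in the high-fat control libraries, against -0.14, -0.22, -0.65, 0.66 and -0.66 in the control libraries. The groups did not overlap, with means of 1.27 ± 0.38 on the high-fat control diet and -0.20 ± 0.54 on the control diet (SD, n = 5 each). The ratio was thus 2.77-fold higher on the high-fat control diet (exact two-sided permutation p = 0.00794, the smallest possible).

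**Figure D1:**
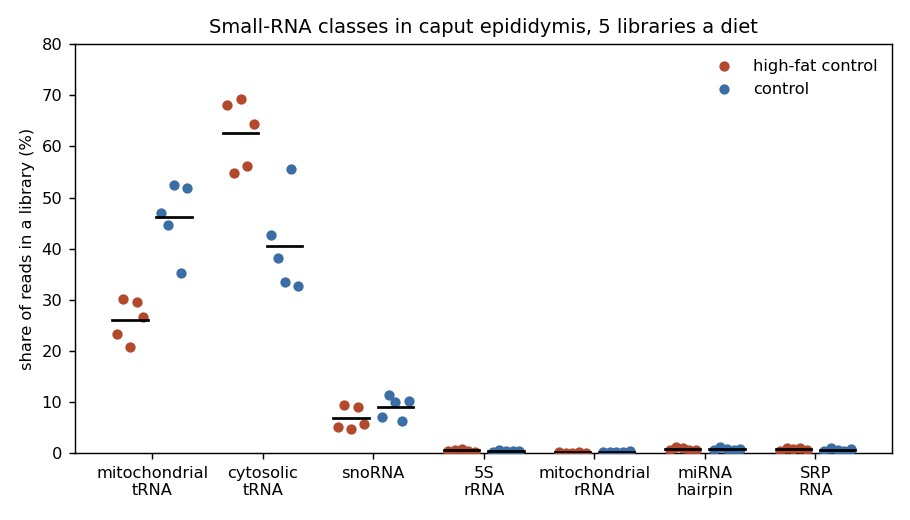
Share of reads (%) of 7 classes of small RNA in each of the 5 high-fat control and 5 control caput libraries, with points for libraries and a black line for each mean. The mitochondrial tRNA points of the high-fat control diet (20.7% to 30.2%) all lie below those of the control diet (35.2% to 52.4%), while cytosolic tRNA overlaps at a single control library.

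The other classes held fewer reads. snoRNAs made up 6.86% ± 2.25 of the reads on the high-fat control diet and 9.03% ± 2.18 on the control diet (SD, n = 5 each, exact permutation p = 0.167, adjusted 0.361). Over reads outside mitochondrial tRNAs their shares were 9.43% ± 3.56 on the high-fat control diet and 17.2% ± 5.29 on the control diet (exact permutation p = 0.0397, adjusted 0.133). Mitochondrial rRNA fragments made up 0.199% ± 0.073 on the high-fat control diet and 0.316% ± 0.072 on the control diet (exact permutation p = 0.0476, adjusted 0.144). The shares of snRNAs, miRNA hairpins, 5S rRNA, signal recognition particle RNA, Y RNAs and piRNA precursors had adjusted p between 0.436 and 1 by the same exact permutation test. No class passed the correction.

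Single small RNAs were tested with edgeR's quasi-likelihood test on the counts of all 19 caput libraries of the 4 diets, with the contrast high-fat control minus control and Benjamini-Hochberg adjustment over the 145 features with enough reads. At an adjusted p under 0.05, 34 features (23.4%) passed, of which 26 (17.9%) were higher and 8 (5.52%) lower on the high-fat control diet, and 57 had an unadjusted p under 0.05. The median log2 fold change of all 145 was 0.02. Of the 26 higher features, 25 were cytosolic tRNAs and 1 a snoRNA, and of the 8 lower ones 6 were snoRNAs and 2 mitochondrial tRNAs. Scaling changes this split: with RLE size factors, which move the median of all features to -0.57, 15 were higher and 45 lower, and with total counts 31 were higher and 22 lower. No call reversed its direction under either, and 23 of the 34 (15 cytosolic tRNAs, 2 mitochondrial tRNAs and 6 snoRNAs) were called under all 4 scalings tried. Single libraries also weigh on the counts. Without control replicate 4, 87 features passed (30 higher, 57 lower). Without high-fat control replicate 4 it was 75 (22 higher, 53 lower), without high-fat control replicate 5 it was 58 (15 higher, 43 lower), and without control replicate 2 it was 18 (14 higher, 4 lower). The split turned to 7 higher and 27 lower without control replicate 3, to 5 and 23 without control replicate 5, and to 7 and 26 without high-fat control replicate 1. In each of these settings no cytosolic tRNA was called lower and no mitochondrial tRNA higher.

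The cytosolic tRNAs that passed were all higher on the high-fat control diet. All 42 tested had a positive log2 fold change (40 of 42 with RLE size factors), 25 rose by the test and none fell, and the median of the 42 was 1.26 with a range of 0.49 to 2.02, beside 0.02 over all features. The median was 0.81 with RLE size factors, 1.09 with total counts and 1.12 with a library size taken outside mitochondrial tRNAs. The number that rose was 30 without control replicate 4, but 13 without control replicate 2, 7 without control replicate 3, 5 without control replicate 5, 7 without high-fat control replicate 1 and 15 without high-fat control replicate 5. By RPM ranges 2 of the 42 were higher without overlap, beside 1.38% of all tested features. The other 138 of the 180 cytosolic tRNA entries kept had too few caput reads for the test, and near-identical copies make the value of any single tRNA uncertain, since no source used here says how reads were divided among copies.

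The largest increase was that of a cysteine tRNA. tRNA-Cys-GCA-5 had 1219, 560, 908, 447 and 748 RPM in the high-fat control libraries, against 245, 73, 81, 473 and 123 RPM in the control libraries. Only control replicate 4 reached the high-fat control range, by passing high-fat control replicate 4. Its log2 fold change was 2.02 ± 0.43 (SE, adjusted p = 0.00109 by edgeR's quasi-likelihood test), and it passed under each of the 19 alternatives in which it was tested. tRNA-Cys-GCA-2, which did not overlap, averaged 406 ± 146 RPM on the high-fat control diet and 111 ± 52.8 RPM on the control diet (SD, n = 5 each), a log2 fold change of 1.98 ± 0.46. The third tested cysteine tRNA, tRNA-Cys-GCA-3, rose by 1.39 ± 0.44 on the log2 scale.

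The most abundant tRNA that passed reads the lysine codon AAG, and another abundant one the glutamine codon CAG. tRNA-Lys-CTT-3 had 48261, 39589, 46992, 29768 and 38147 RPM in the high-fat control libraries, against 13351, 12824, 8255, 36583 and 9551 RPM in the control libraries. Of the control libraries, only replicate 4 lay within the high-fat control range, and the other 4 lay far below it. Its log2 fold change was 1.46 ± 0.46 (SE, edgeR adjusted p = 0.0205), and that of tRNA-Lys-CTT-2 was 1.32 ± 0.46 (adjusted p = 0.0277). tRNA-Gln-CTG-2 had 43286, 21195, 30672, 22728 and 20757 RPM on the high-fat control diet, against 11440, 6631, 6215, 25431 and 8421 RPM on the control diet. It showed the same arrangement, with control replicate 4 alone inside the other range, and a log2 fold change of 1.40 ± 0.48 (edgeR adjusted p = 0.0261).

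tRNA-Glu-CTC-1, a source of fragments known from sperm, averaged 36462 ± 5992 RPM on the high-fat control diet and 18431 ± 7924 RPM on the control diet (SD, n = 5 each), a log2 fold change of 1.18 ± 0.44 (edgeR adjusted p = 0.0391) that did not pass in 10 of its 20 alternatives. tRNA-Gly-GCC-2, also known for fragments in sperm, averaged 35799 ± 6252 RPM on the high-fat control diet and 20826 ± 7594 RPM on the control diet and did not pass (log2 fold change 0.99 ± 0.44, adjusted p = 0.0827). tRNA-SeC-TCA-1, which inserts selenocysteine into selenoproteins, averaged 1394 ± 735 RPM on the high-fat control diet and 519 ± 326 RPM on the control diet and rose by 1.58 ± 0.45 on the log2 scale (edgeR adjusted p = 0.0178). The initiator tRNA-iMet-CAT-1 averaged 10302 ± 2970 RPM on the high-fat control diet and 5090 ± 2573 RPM on the control diet, a log2 fold change of 1.18 ± 0.44 (adjusted p = 0.0418). Both overlapped between the diets.

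By amino acid, the tRNAs that passed were 4 of 4 for arginine, 3 of 3 each for cysteine, serine and proline, 2 of 3 for lysine, 2 of 5 for glutamine, 1 of 2 for leucine, 1 of 3 for glutamate, 1 of 5 for glycine, 0 of 4 for valine and 0 of 2 for aspartate. Asparagine, histidine, threonine, selenocysteine and the initiator each had 1 tested tRNA, and each passed. All 3 proline tRNAs lost their call with RLE size factors. The largest log2 fold changes besides cysteine were those of tRNA-Leu-AAG-1 (1.98 ± 0.65), tRNA-Ser-GCT-3 (1.96 ± 0.60), tRNA-Pro-AGG-1 (1.93 ± 0.62), tRNA-Asn-GTT-3 (1.86 ± 0.55) and tRNA-Pro-TGG-2 (1.78 ± 0.51). These were rare tRNAs, with at most 934 RPM on the high-fat control diet and 296 RPM on the control diet on average. Of the tRNAs of essential amino acids, which an animal takes from its food, 5 of 11 passed with a median log2 fold change of 1.25, and of those of the other amino acids 18 of 29 with a median of 1.26, beside 17.9% of all tested features called higher. The difference between these groups was not tested.

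**Figure D2:**
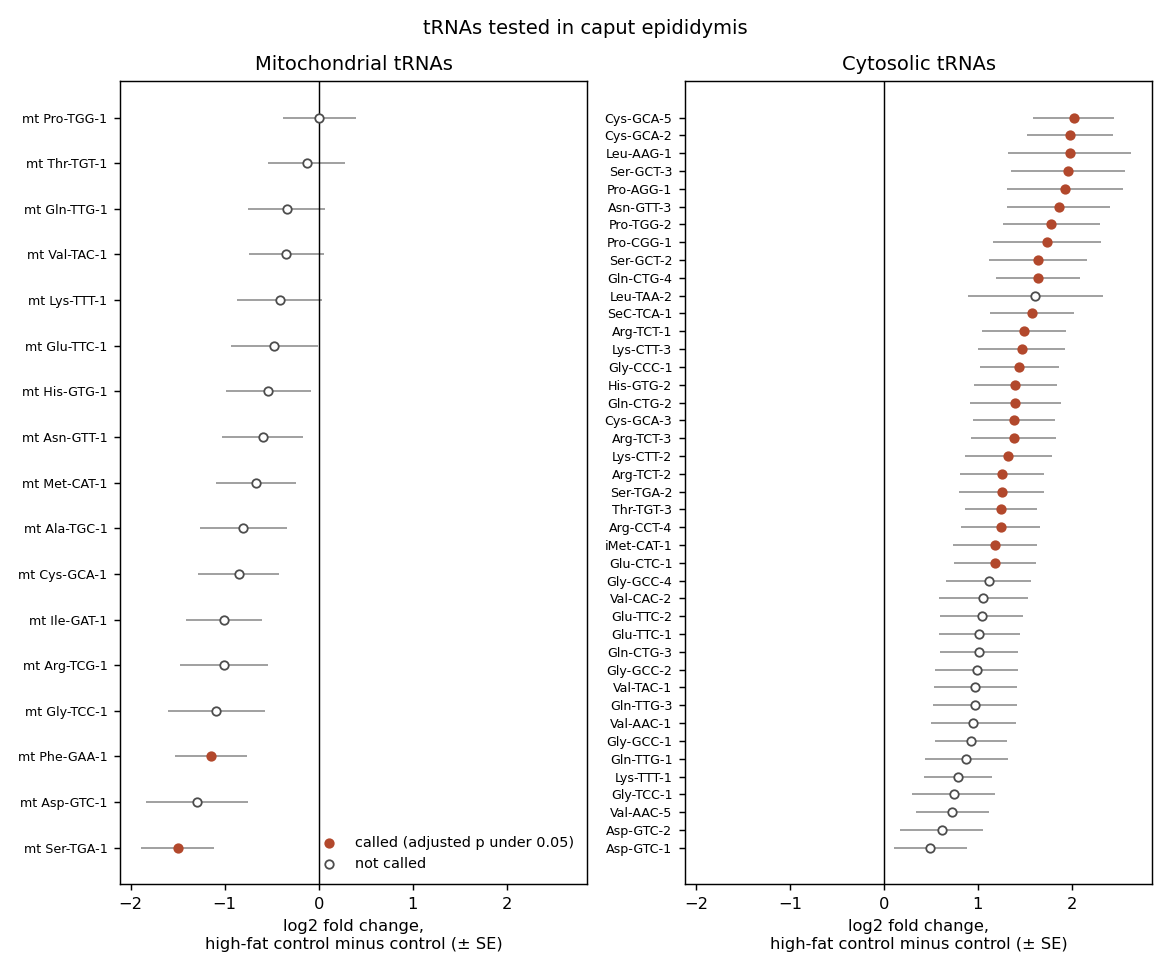
Log2 fold change, high-fat control minus control, with its SE, of the 17 mitochondrial and 42 cytosolic tRNAs tested in caput. Filled points passed an adjusted p of 0.05: none of the cytosolic tRNAs lies below 0, and 16 of the 17 mitochondrial tRNAs do.

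Aspartate tRNA was the exception in size. tRNA-Asp-GTC-1, the most abundant feature of caput, had 256027, 212045, 266691, 266286 and 263108 RPM in the high-fat control libraries, against 253574, 201618, 202351, 204592 and 189344 RPM in the control libraries. The ranges overlapped, and here it was control replicate 1 that lay among the high-fat control values. Its log2 fold change of 0.49 ± 0.39 did not pass (adjusted p = 0.36) and turned to -0.16 with RLE size factors. Within the cytosolic tRNA reads, a composition examined after the tests and given without one, aspartate took 42.2%, 41.8%, 42.6%, 52.4% and 46.2% in the high-fat control libraries, against 65.7%, 57.1%, 66.7%, 41.2% and 63.4% in the control libraries. Apart from control replicate 4, every control library had a larger aspartate share than every high-fat control library: without it the means were 45.04% ± 4.49 on the high-fat control diet and 63.3% ± 4.30 on the control diet. That library was set apart by its own values, so the gap without it is no separate support for a difference.

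The other 16 families with at least 50 caput reads took larger mean shares of the cytosolic tRNA reads on the high-fat control diet. Lysine tRNAs took 9.47% ± 1.20 on the high-fat control diet and 5.67% ± 2.40 on the control diet (SD, n = 5 each), and glutamate tRNAs 16.3% ± 1.73 on the high-fat control diet and 12.96% ± 3.05 on the control diet. All 17 families had a higher mean RPM on the high-fat control diet, from 1.21 times for aspartate to 3.58 times for asparagine. None was free of overlap in RPM or in share. Control replicate 4 was singled out because its own values lay nearest the other diet, so leaving it out by itself widens the gap between the diets. Without control replicate 4, 13 of the 17 were higher in RPM without overlap, beside 34 higher and 26 lower of all tested features. In share 9 were then higher (glutamate, glutamine, arginine, lysine, histidine, cysteine, selenocysteine, serine and leucine) and aspartate was lower. Without high-fat control replicate 4, 5 families were higher in RPM, beside 13 higher and 32 lower of all tested features, and 1, proline, was higher in share. The share within cytosolic tRNA reads has no counterpart over all features. Leaving out any other single library gave 0 or 1 family higher in RPM, beside 2 to 4 higher and 20 to 22 lower of all tested features, and 0 in share.

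**Figure D3:**
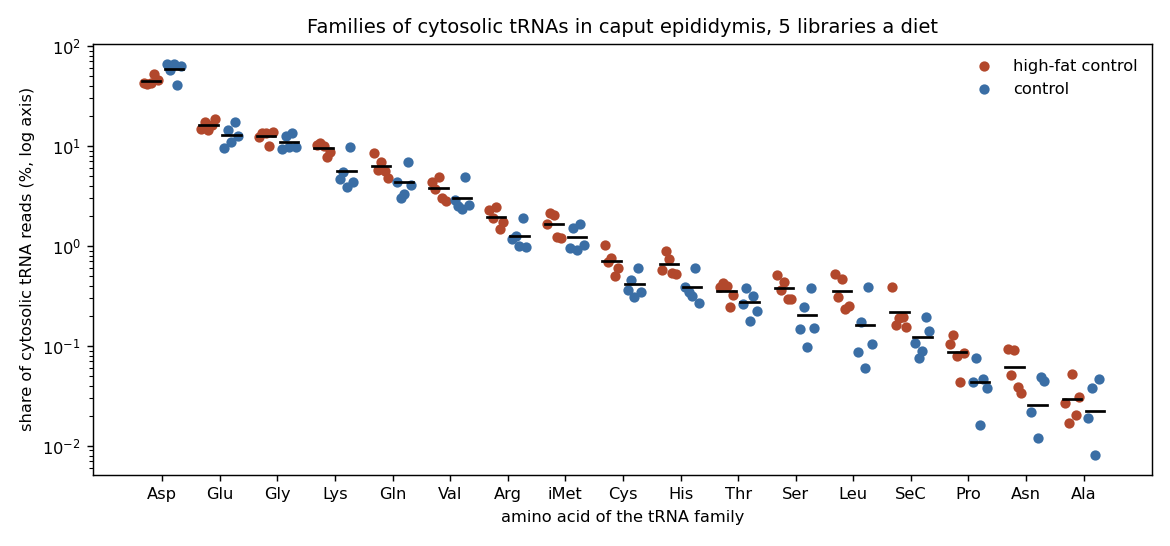
Share of the cytosolic tRNA reads (%, log axis) taken by 17 tRNA families in each of the 5 high-fat control and 5 control libraries, with black lines for means and values of 0 not drawn. Aspartate took 45.04% on the high-fat control diet and 58.8% on the control diet on average, and a single control library lies apart in most families.

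Mitochondrial tRNAs lay lower on the high-fat control diet in their means. All 22 had a lower mean RPM on the high-fat control diet, 12 of them without overlap between the diets, beside 13.8% of all tested features that were lower without overlap. In the edgeR fit 17 could be tested, 16 had a negative log2 fold change, and the median was -0.67 with a range of -1.50 to 0.01. By the test, 2 of the 17 passed, both lower, beside 5.52% of all tested features called lower. The number depends on the scaling, with 15 lower and a median of -1.36 with RLE size factors, 9 and -0.89 with total counts, and 7 and -0.74 with a library size taken outside mitochondrial tRNAs. Over all 145 tested features the lower calls and medians under these scalings were 45 and -0.57, 22 and -0.13, and 18 and -0.04. Without 1 library the number of mitochondrial tRNAs called lower ran from 1, without control replicate 2 or high-fat control replicate 3, to 15, without control replicate 4 or high-fat control replicates 4 or 5. It lay at 11 or 12 without control replicates 3 or 5 or high-fat control replicate 1. The median of all tested features moved as well, from 0.31 without high-fat control replicate 3 to -0.57 without high-fat control replicate 4. None was called higher in any of these settings.

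mt-tRNA-Ser-TGA-1, encoded on the light strand, had 302, 420, 182, 383 and 220 RPM in the high-fat control libraries, against 1083, 1457, 986, 671 and 835 RPM in the control libraries. All control libraries exceeded all high-fat control libraries. Its log2 fold change was -1.50 ± 0.39 (SE, edgeR adjusted p = 0.00845), and it passed under each of its 19 alternatives. mt-tRNA-Phe-GAA-1, the first gene of the heavy-strand transcripts, averaged 360 ± 139 RPM on the high-fat control diet and 985 ± 247 RPM on the control diet (SD, n = 5 each), again without overlap, and fell by 1.15 on the log2 scale (SE 0.38, adjusted p = 0.0225). Without control replicate 2 its adjusted p was 0.051, and without high-fat control replicate 3 it was 0.115.

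The abundant mitochondrial tRNAs did not pass in the main setting, but each passed as lower in some of its 20 alternatives. These were 15 for mt-tRNA-Gly-TCC-1, 15 for mt-tRNA-Arg-TCG-1, 11 for mt-tRNA-Met-CAT-1 and 6 for mt-tRNA-Val-TAC-1. mt-tRNA-Gly-TCC-1 had 22264, 13866, 20983, 27877 and 31301 RPM on the high-fat control diet, against 67477, 37963, 71751, 38383 and 82814 RPM on the control diet. The groups did not overlap, and the log2 fold change of -1.09 ± 0.52 had an edgeR adjusted p of 0.1. The fit took its spread from the caput libraries of all 4 diets. mt-tRNA-Arg-TCG-1 averaged 20984 ± 6143 RPM on the high-fat control diet and 49647 ± 13828 RPM on the control diet, without overlap (log2 fold change -1.01 ± 0.47, adjusted p = 0.0921). mt-tRNA-Met-CAT-1 averaged 23624 ± 3707 RPM on the high-fat control diet and 43962 ± 11999 RPM on the control diet, also without overlap (log2 fold change -0.67 ± 0.42, adjusted p = 0.245). mt-tRNA-Val-TAC-1, the most abundant of the set, overlapped, with 120630 ± 39641 RPM on the high-fat control diet and 174351 ± 32825 RPM on the control diet (log2 fold change -0.34 ± 0.40, adjusted p = 0.536).

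Within the mitochondrial tRNA reads the composition overlapped for 21 of the 22. mt-tRNA-Val-TAC-1 took 45.4% ± 8.78 of them on the high-fat control diet and 37.8% ± 4.60 on the control diet. The exception was mt-tRNA-Ser-TGA-1, which took 0.114% on the high-fat control diet and 0.220% on the control diet without overlap. By strand of origin, the median log2 fold change was -0.84 for 10 heavy-strand and -0.60 for 7 light-strand tRNAs, with 1 lower call in each, and the difference between the strands was not tested. Both mitochondrial rRNAs had negative log2 fold changes, -0.48 and -0.44, and neither passed.

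Of 65 snoRNAs tested, 6 fell and 1 rose, beside 5.52% lower and 17.9% higher among all tested features. The median log2 fold change was -0.29, or -0.93 with RLE size factors, under which 27 were lower and none higher. Over all 145 tested features, RLE size factors gave 45 lower calls and a median of -0.57. Lower calls among snoRNAs numbered 36 of 59 without control replicate 4, 34 of 58 without high-fat control replicate 4 and 26 of 58 without high-fat control replicate 5. They numbered 12 to 14 without control replicates 3 or 5 or high-fat control replicate 1, and 3 without control replicate 2 or high-fat control replicate 3. The median of all tested features moved as well, to -0.56 without control replicate 4, -0.57 without high-fat control replicate 4 and -0.45 without high-fat control replicate 5. Lower calls over all features rose in these settings, as given above. Without overlap in RPM, 8 of the 65 were lower and none higher, a share near the 13.8% of all tested features that were lower without overlap. Gm22680 had the largest change of any tested feature. It had 194, 373, 151, 409 and 198 RPM in the high-fat control libraries, against 1200, 1749, 1851, 900 and 1841 RPM in the control libraries. Each control library lay above each high-fat control library, and the log2 fold change was -2.30 ± 0.40 (SE, edgeR adjusted p = 3.77e-05), with an adjusted p of at most 0.00384 over its 19 alternatives.

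Snord111 had 389, 420, 182, 639 and 418 RPM in the high-fat control libraries, against 769, 1603, 1513, 1068 and 1498 RPM in the control libraries. The groups did not overlap, and it fell by 1.40 on the log2 scale (SE 0.37, edgeR adjusted p = 0.00845). Gm22193 averaged 895 ± 321 RPM on the high-fat control diet and 2406 ± 879 RPM on the control diet (SD, n = 5 each) and fell by 1.22 (SE 0.39, adjusted p = 0.0211). Snord111 and Gm22193 share a run of 17 bases (tcatgtctcttctctga), so reads of one may have been counted for the other. Both lie within Sf3b3, the gene of a subunit of the splicing factor complex SF3B, on its strand, where some annotated transcript has an exon over each.

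The other snoRNAs that fell, with their log2 fold change and SE, were Gm26109 (-1.26 ± 0.39), in the gene of the mitochondrial chaperone Hspa9, Gm25855 (-1.15 ± 0.38) and Snord1b (-1.15 ± 0.39). Gm25855 lies with Gm22680 in Snhg1, a non-coding snoRNA host gene, where all 4 tested snoRNAs had negative log2 fold changes with a median of -0.93 and 2 of the 4 passed. In Gas5, another non-coding host, all 4 were negative with a median of -0.53 and none passed. Of all 65 tested snoRNAs, 46 were negative. Other hosts differed: in Zfas1, also non-coding, 1 of 3 was negative with a median of 0.09, in 2410006H16Rik 1 of 3 with a median of 0.11, and in Rps12 0 of 2 with a median of 0.07, and none of these passed. In all, 61 of the 65 lay inside a host gene on its strand by the GENCODE annotation. Hosts were looked up after the calls, and the table does not count the host transcripts. Snord83b, in the ribosomal protein gene Rpl3, averaged 370 ± 129 RPM on the high-fat control diet and 170 ± 75.9 RPM on the control diet and rose by 1.36 ± 0.42 (adjusted p = 0.0199), a call lost with RLE size factors (adjusted p = 0.218) and in 9 further alternatives.

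**Figure D4:**
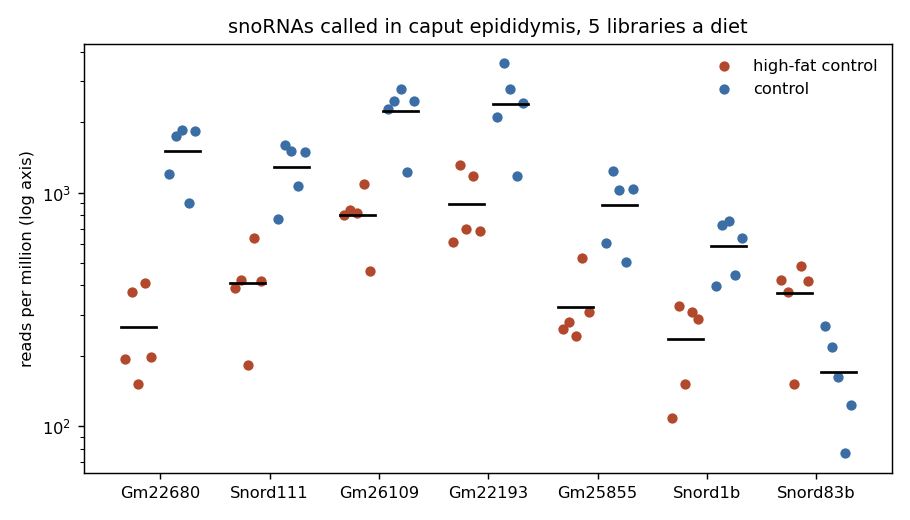
RPM (log axis) of the 7 snoRNAs that passed the test, in each of the 5 high-fat control and 5 control caput libraries, with black lines for means. In Gm22680 the highest high-fat control library (409) lies below the lowest control library (900), and Snord83b alone is higher on the high-fat control diet.

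No feature of the remaining lists passed. None of 4 snRNAs, 8 miRNA hairpins, 2 Y RNAs and 1 small Cajal body RNA was called, and neither were 5S rRNA and signal recognition particle RNA. Their median log2 fold changes were 0.05, 0.43, 0.27, 0.37, 0.55 and 0.57. No piRNA precursor, H/ACA box snoRNA by name or RNase P or MRP RNA had enough reads for the test.

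The caput libraries of the test diets show where the 2 control diets lie. The mitochondrial tRNA share was 23.5% ± 8.64 on the low-protein diet (SD, n = 5, range 15.0% to 33.7%) and 20.1% ± 6.76 on the high-fat diet (SD, n = 4, range 15.3% to 30.0%). The control libraries, at 35.2% to 52.4%, thus lay above all libraries of the other 3 diets. The mean log2 ratio of cytosolic to mitochondrial tRNA reads was 1.40 ± 0.86 on the low-protein and 1.78 ± 0.49 on the high-fat diet, beside the 1.27 and -0.20 of the high-fat control and the control diet. Low-protein libraries were shallow, with 912 to 16196 reads. These diets were not tested against each other here.

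The same pair of diets was available in the other 5 sample types, in 48 libraries, and the effect in caput was set against the mean of the effects there in an edgeR fit of all 58. Of 405 features 84 (20.7%) differed, 80 (19.8%) with a higher and 4 (0.988%) with a lower effect in caput. Of the 80, 77 were cytosolic tRNAs, out of 93 tested, and 3 were mitochondrial tRNAs. In the fit of caput libraries only 42 cytosolic tRNAs had enough reads for the test. The others of the 93 did not have enough reads in caput alone, and the counts and medians given here include them. How many of the 77 are among the 42 is not given here, so 77 of 93 and the caput median of 1.22 do not describe only tRNAs well covered in caput. The median effect on cytosolic tRNAs in this fit was 1.22 in caput, against -0.12 in cauda, -0.58 in sperm, -2.94 in testis, -1.76 in heart and -3.20 in liver. The split depends on scaling: with RLE size factors 55 were higher and 80 lower, and with total counts 65 and 33. For mitochondrial tRNAs the median difference of 0.19 turned to -1.26 with RLE size factors and -0.68 with total counts. In this fit no feature was called in caput itself (58 had an unadjusted p under 0.05), so the difference rests on the other sample types as well. There the diet effect was called higher in 0 and lower in 5 features (1.23%) in cauda, 20 (4.94%) and 3 (0.741%) in sperm, 70 (17.3%) and 107 (26.4%) in testis, 28 (6.91%) and 99 (24.4%) in heart, and 12 (2.96%) and 90 (22.2%) in liver.

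Among the abundant tRNAs, the difference was 2.80 ± 0.56 on the log2 scale for tRNA-Lys-CTT-3 (edgeR adjusted p = 6.48e-05), 3.53 ± 0.63 for tRNA-Gln-CTG-2 (1.62e-05) and 1.46 ± 0.51 for tRNA-Asp-GTC-1 (0.0278). The 5 largest differences belonged to tRNA-Met-CAT-1, tRNA-Met-CAT-2, tRNA-Asn-GTT-1, tRNA-Thr-CGT-2 and tRNA-Cys-GCA-4, each with at most 4 reads on the high-fat control diet and 1 read on the control diet in caput, so no caput fold is given for them. The 4 lower ones were the snoRNAs Gm22571, Snord111, Gm25789 and Gm24299. The fitted log2 effect on Snord111 was -1.45 in caput, against -1.31 in heart, -0.26 in liver, 0.21 in cauda, 0.38 in testis and 2.89 in sperm, where it rests on 23 reads on the high-fat control diet and 2 on the control diet.

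Compared with 1 sample type at a time, caput differed in 83 features from testis, 90 from heart and 93 from liver, but in 9 from sperm (1 higher, 8 lower) and in 0 from cauda, where 52 had an unadjusted p under 0.05. Depth moves with these results. In liver the high-fat control libraries held 6279 to 22138 reads and the control libraries 77024 to 809017, in testis the high-fat control libraries held 19465 to 43204 and the control libraries 117656 to 670912, and in heart 11317 to 661583 on the high-fat control diet and 735181 to 1467835 on the control diet. The depths of both diets overlapped in caput, cauda and sperm. The part of depth in the differences was not tested. The log2 ratio of cytosolic to mitochondrial tRNA reads was -0.19 ± 0.22 on the high-fat control diet and 1.25 ± 0.36 on the control diet in liver (SD, n = 4 each). These did not overlap, and their order was the opposite of that in caput.

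**Figure D5:**
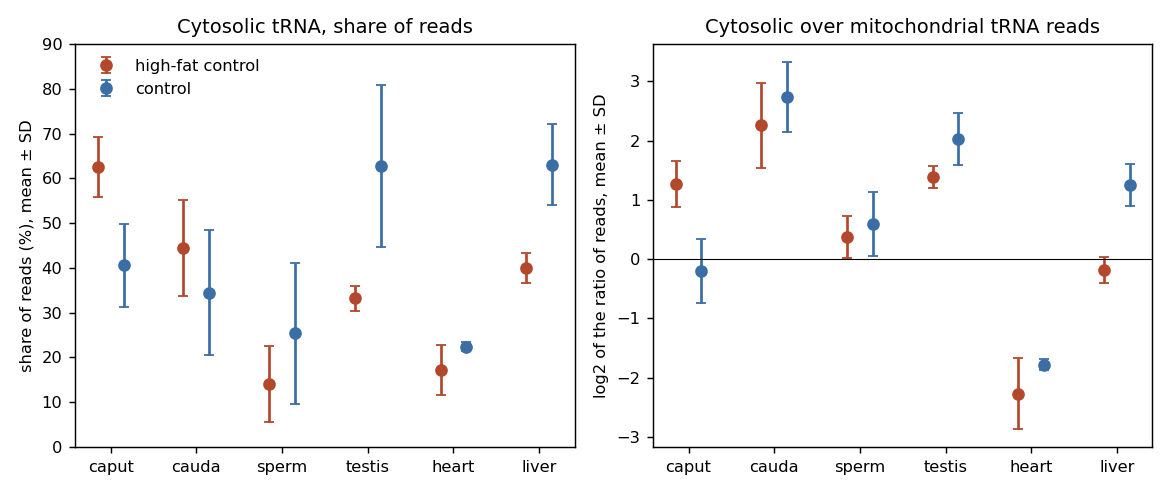
Left, share of reads of cytosolic tRNAs (%), and right, log2 ratio of cytosolic to mitochondrial tRNA reads, as mean ± SD of 4 or 5 libraries per diet in 6 sample types. Caput has the higher ratio on the high-fat control diet (1.27) than on the control diet (-0.20), and liver the lower (-0.19 and 1.25).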

How the data were processed

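The authors deposited 1 table of raw read counts, whole numbers with no normalization, for 1268 named small RNAs in 111 libraries. The submitters' processing notes name the tools cutadapt and DESeq2 and the build mm10, without a role. No source used here gives the aligner, how reads with several matches were counted, whether strand was used, or what a code in the column names stands for. Diet, tissue and replicate of a library were read from its title, and its column by library name.

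Reads can be listed under several names. Second names of mitochondrial tRNAs (22), entries that differ from a kept one by under 5% in sum (149), further 5S rRNA entries (56) and entries under 50 reads (246) were left out, and the remaining 795 features hold 51.0% of the summed counts. RPM is relative to the total of these, per library. Of 512 gene names, 507 matched GENCODE M21 (GRCm38). The test was that of edgeR 4.0.16, run in R 4.3.3: filterByExpr, TMM, glmQLFit with robust estimates, glmQLFTest, Benjamini-Hochberg, called under 0.05. DESeq2 1.42.0 was an alternative. Class shares were compared by exact permutation of all 252 arrangements. On simulated counts the caput fit recovered 47.4% of 19 features changed 1 log2 unit and all 16 changed 2 units, and called none of 94 unchanged. The fit against the other sample types recovered 15.4% of 39 and 47.5% of 40, and called 0.424% of 236 unchanged. The simulated counts had the same fixed spread for every feature and no shift shared by the features of a library. They therefore give no rate of false calls for the real libraries.

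Depth limits the precision: 13724 to 92662 reads per library, and intervals that count reads would cover counting error only. No 2 libraries of a group agreed within sampling noise (smallest chi-square per degree of freedom 4.48 over 20 pairs). The members and lists were chosen with earlier results of these data known. Named features are the 10 largest changes in each direction among calls with at least 50 reads, the 8 most abundant, the called mitochondrial tRNAs, up to 3 per list with the smallest adjusted p, and the 5 largest differences in each direction against the other sample types. The read ratio, the compositions within classes, the list counts without single libraries and the snoRNA hosts were added after the values were seen.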

Additional observations from a re-analysis of the deposited data

Results flagged for a closer look

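In 12 of 104 groups of 5 caput libraries a single library lay far from the other 4. Chance gives about 1 in 20 for a single group. The 104 groups reuse the same 10 libraries, so their count cannot be set against that rate. On the control diet this was replicate 4 for tRNA-SeC-TCA-1 (1083 RPM), tRNA-Lys-CTT-3 (36583 RPM), tRNA-Lys-CTT-2 (17193 RPM), tRNA-Arg-TCT-1 (4226 RPM), tRNA-Gln-CTG-2 (25431 RPM) and tRNA-Gly-CCC-1 (1587 RPM), each above the other 4, and replicate 1 for tRNA-Asp-GTC-1 (253574 RPM). On the high-fat control diet it was replicate 1 for tRNA-SeC-TCA-1 (2676 RPM), replicate 2 for tRNA-Asp-GTC-1 (212045 RPM), replicate 3 for mt-tRNA-Phe-GAA-1 (121 RPM) and replicate 4 for Gm25855 (524 RPM) and for the share of other annotated small RNAs (0.586% of the reads).

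The effect of the diet in caput differed from its mean in the other 5 sample types for tRNA-Met-CAT-1 (6.49 on the log2 scale), tRNA-Met-CAT-2 (6.47), tRNA-Asn-GTT-1 (5.97), tRNA-Thr-CGT-2 (5.57) and tRNA-Cys-GCA-4 (5.38), fitted values that rest on 5 caput reads at most and are no bounds. It also differed for Gm22571 (-3.31, on 10 reads on the high-fat control diet and 47 on the control diet in caput), Snord111 (-1.83), Gm25789 (-1.63) and Gm24299 (-1.60). In liver the log2 ratio of cytosolic to mitochondrial tRNA reads differed by -1.43 between the high-fat control and the control diet without overlap, where in caput it differed by 1.47 without overlap. The difference between the sample types was not tested for the ratio.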

How the results depend on the processing

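Of 33 named features that passed in caput, none reversed under any alternative, and 485 of 635 values kept their call. Over all these settings 5 to 31 cytosolic tRNAs were called higher and none lower. The 34 calls (26 higher, 8 lower) became 60 (15, 45) with RLE size factors, 53 (31, 22) with total counts, 42 (24, 18) with a library size outside mitochondrial tRNAs, 66 (17, 49) with DESeq2, 53 (34, 19) in the 10 libraries alone, 27 (5, 22) without a filter on low counts, 65 (17, 48) over all entries, 43 (21, 22) after thinning to 13724 reads, and 33 (25, 8) without libraries under 5000 reads. Leaving out 1 library gave 18 to 87 calls, 5 to 30 higher and 4 to 57 lower. The labels give no pairing by replicate number, and none was used in the main fit. Same-numbered libraries correlated at -0.684 to 0.399, with 2 of 5 over 0.1, and other-numbered ones at -0.517 to 0.635. These correlations cannot exclude a pairing. With a replicate block 31 features passed (20 higher, 11 lower), and the mitochondrial and cytosolic tRNA shares had an exact sign-flip p of 0.0625, the smallest 5 pairs allow. The ratio of cytosolic to mitochondrial tRNA reads differed by 1.35 to 1.69 on the log2 scale without 1 library, with exact p of at most 0.0159. tRNA-Asp-GTC-1, not called, turned to -0.16 with RLE size factors, -0.16 with DESeq2 and -0.021 over all entries, and ran from -0.16 to 0.71 without 1 library. Over reads outside mitochondrial tRNAs, the difference in share was 9.81 percentage points for cytosolic tRNAs (22.01 over all reads), -7.80 for snoRNAs (-2.18) and -0.332 for mitochondrial rRNAs (-0.117), none past the correction, and these uncalled shares changed sign: 5S rRNA -0.109, signal recognition particle RNA -0.110, miRNA hairpins -0.366 and piRNA precursors -0.011 percentage points. Without 1 library uncalled differences ran from -0.041 to 0.158 for miRNA hairpins, -0.0098 to 0.123 for other annotated small RNAs (misc_RNA), -0.0043 to 0.0042 for piRNA precursors and -0.182 to 0.102 for snRNAs.

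Against the other sample types, the 84 calls (80 higher, 4 lower) became 135 (55, 80) with RLE size factors, 98 (65, 33) with total counts, 85 (76, 9) with a replicate block, 9 (1, 8) against sperm alone, 0 against cauda alone (0 higher, 0 lower), and 13 and 11 lower against heart and liver alone. Without 1 caput library 47 to 75 were higher and 3 to 33 lower. The median difference of mitochondrial tRNAs turned to -1.26 with RLE size factors, -0.68 with total counts, -0.13 without a filter and -1.08 against cauda alone, and ran from -0.66 to 0.065 without 1 library. That of snoRNAs was 0.049 against heart alone. Gm22571 turned to 0.15 against testis alone and Gm24299 to 0.48 against heart alone. The causes were not tested.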
